A study of Mus musculus with 12 samples.

Results

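In RTF2-deficient mouse embryonic fibroblasts (MEFs), 69 of the 24100 genes counted met a rule for lower levels than in wild-type (WT) MEFs. It asked for a log2 ratio under -1 in each of 2 lines, no overlap between libraries of the genotypes, and the further conditions below. These 69 members were selected on the measured values themselves. Counts were scaled to each library's total as CPM, the usual unit of counts scaled to a common library size, and a gene was kept if it had a mean of at least 1 CPM in the 6 WT libraries, a log2 ratio of mean RTF2-deficient CPM to mean WT CPM under -1 in line 1 and in line 2, and less CPM in every RTF2-deficient library than in every WT library. Of the 12291 genes with that mean in WT, 74 (0.602%) met these conditions. Rtf2, Plxna3 and Cox6b2, left out by name, and Cdk16 and Wdr13, left out as X-linked, were 5 of them. Dio3os was also to be left out by name, but its mean in WT of 0.669 CPM lay under the minimum. Since genotype differences chose the members, their size is given as a description without a test. The same conditions turned round, with RTF2-deficient libraries higher, were met by 5 of 12141 genes (0.0412%).

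RTF2 is a component of the replisome, the assembly of proteins that copies DNA. The RTF2-deficient MEFs were Rtf2-/lox and the WT MEFs were Rtf2+/+ littermate controls, and both received Cre recombinase from the Hit & Run pMMP retrovirus 72 hours before collection, so that WT libraries carry the exposure to Cre too. The study states in general that its replicate experiments used MEF lines from individual mothers, but the labels do not give the mothers of line 1 and line 2. According to the study the MEFs were immortalized with SV40, whose large T antigen inactivates p53 and RB. Line 1 and line 2 each had 3 libraries of either genotype, 12 in all. The study calls them technical replicates, so that standard errors and p-values measure the spread between such libraries and not between embryos. Total counts lay between 39360167 and 44695002 per library, with a median of 42066275. At 4 counts, the lowest count of a member in any library, counting error alone is large, but 66 of the 69 members had over 10 counts in every library.

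Rtf2 itself checks the labels. It had 45.3, 43.7 and 46.4 CPM in WT line 1 and 5.48, 5.24 and 6.14 CPM in RTF2-deficient line 1. In line 2 it had 60.8, 53.7 and 52.6 CPM in WT line 2 and 6.61, 6.43 and 6.57 CPM in RTF2-deficient line 2. Every library thus followed its genotype label, and RTF2-deficient libraries kept some counts of Rtf2. The cells were also checked for their type. All 12 fibroblast markers listed were present at a mean of at least 1 CPM, with a sum per library between 20414 and 31556 CPM, and Fn1, which encodes fibronectin, was the most abundant at 5701 to 10819 CPM. Of the markers of other cells, the epithelial ones summed to at most 14.1 CPM per library, the endothelial ones to 21.1, the macrophage and blood ones to 10.5 and the skeletal muscle ones to 18.8. Neural markers summed to 71.0 to 130.2 CPM, of which Map2 made up 35.9 to 90.4. Fat and cartilage markers summed to 817 to 2651 CPM, of which Col2a1 made up 733 to 2377. No member is on these lists, and of the markers only Hbb-bs was at 0 in all libraries, where 0 counts allow up to 0.0762 CPM in the shallowest library.

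A pair of differences between libraries bear on the values that follow. In WT line 2, Xist, the RNA that coats the silent X chromosome of female cells, had 0.0228 to 0.134 CPM, while it had 99.1 to 171 CPM in the other 9 libraries, and the Y-linked Ddx3y had 93.2 to 110.3 CPM in WT line 2 and at most 0.191 CPM elsewhere. In line 2 genotype and sex therefore cannot be told apart, whereas in line 1 the libraries of both genotypes had Xist. The listed interferon-stimulated genes, which cells switch on after sensing virus or nucleic acids, also varied between libraries of 1 group. Their median log2 CPM (TMM-normalized) was 8.11 in WT line 2 replicate 1 and 4.52 in replicate 2, and it was 6.49 in RTF2-deficient line 2 replicate 3 and 1.48 in replicate 1. In edgeR's comparison of genotypes, at an adjusted p under 0.05 and a size over 1 on the log2 scale, 0 of the 28 were called, where 1.22% of all genes tested were lower and 0.505% higher. All 28 had a fitted value below 0, with a median log2 fold change of -1.55, and 3 had an unadjusted p under 0.05, as did 4070 of all 14263 genes. DESeq2 called 1 of them lower, and 199 lower and 114 higher of the 14263 genes.

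The members do not share a single function. Grouped by textbook role after their names were known, 7 encode enzymes of sugars and glycans, 10 other enzymes of small molecules, 7 mitochondrial proteins, 7 transporters and proteins of membrane traffic, 6 kinases or kinase-like proteins, 6 proteins of the cilium, centrosome or cytoskeleton, 7 factors that act on DNA, RNA or transcription, 7 proteases, ubiquitin ligase adaptors and related proteins, and 4 receptors or secreted proteins, while 8 are given no role here. Their mean in WT ran from 1.08 to 310.7 CPM with a median of 13.3, against 31.2 CPM for the median of all genes with at least 1 CPM. Per kilobase of spliced transcript, the median level in WT was 5.53 CPM for members and 10.4 CPM for those genes. Together the members took a mean of 0.161% of the counts of a WT library and 0.0632% of those of an RTF2-deficient library. In these bulk samples, fewer cells that express a gene and less RNA per cell cannot be told apart.

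The median log2 ratio over the members was -1.23 in line 1 and -1.43 in line 2, beside -0.02 and -0.03 over all genes with at least 1 CPM in WT. The ratio was more negative in line 2 for 53 members and in line 1 for 16, a count over values the rule used, from which no difference between the lines is read. Values of a member in a line ran from -2.79 to -1.01, and 3 members lay below -2 in both lines. The lowest WT library exceeded the highest RTF2-deficient library by a factor between 1.03, for Kazald1, and 2.98, for Pgghg. Among the roles, the small-molecule enzymes had the most negative medians, -1.53 in line 1 and -1.77 in line 2.

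**Figure D1:**
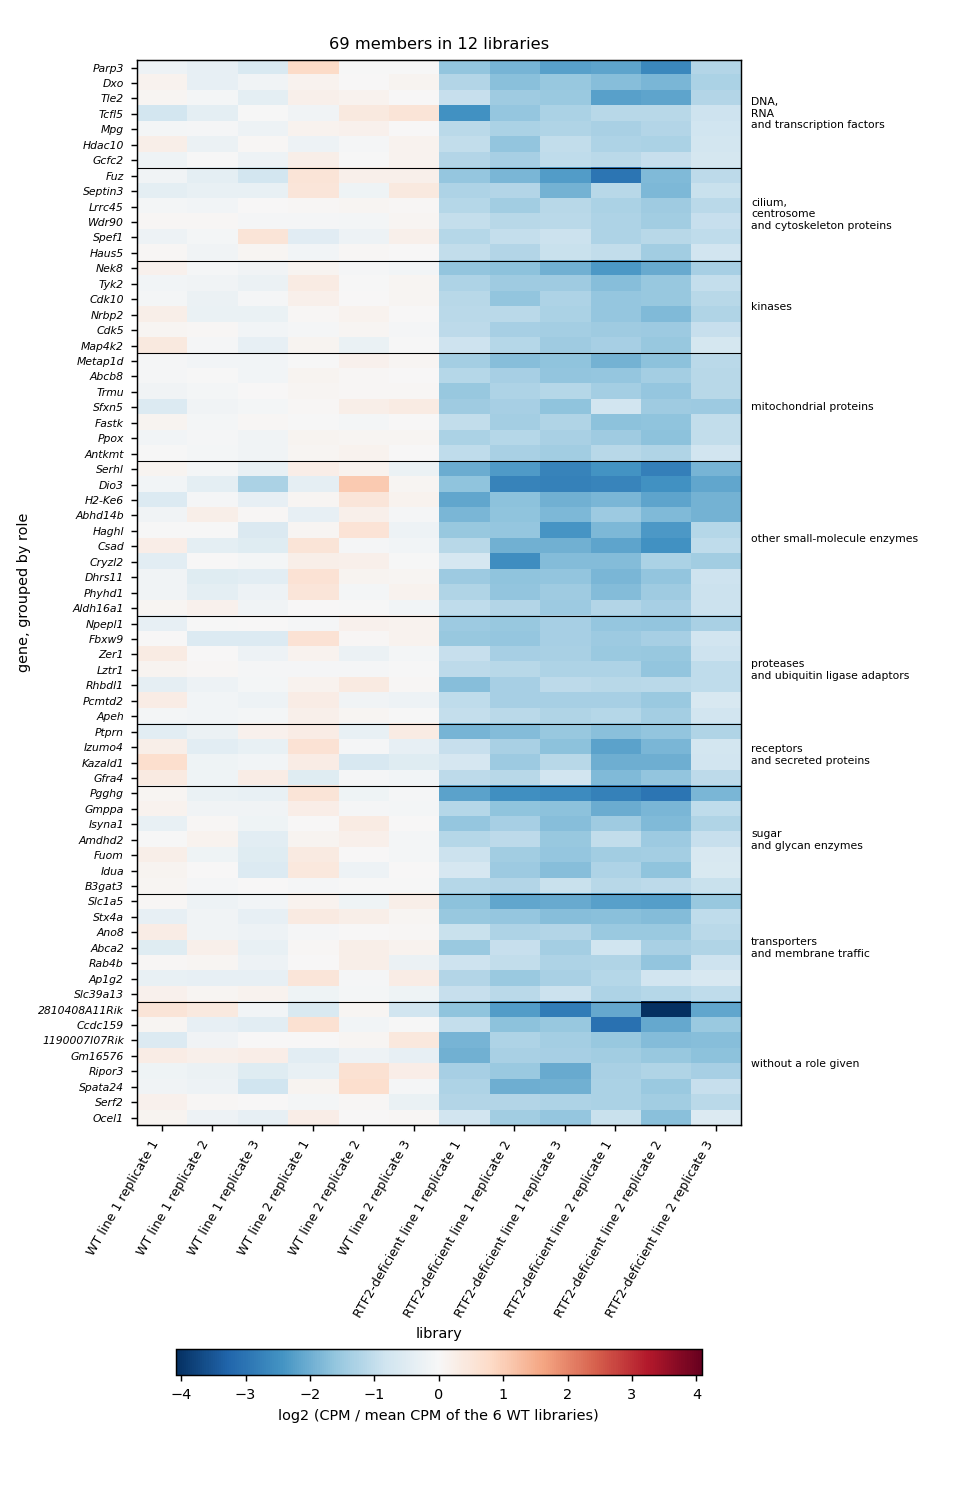
CPM of each of the 69 members (top to bottom, grouped by role) in each of the 12 libraries (left to right), as the log2 of its ratio to the member's mean over the 6 WT libraries, with blue below that mean and red above it. The RTF2-deficient libraries are blue throughout, as the choice of members requires, and RTF2-deficient line 2 replicate 3 is paler than the other 2 libraries of its group.

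Among the enzymes of sugars and glycans, Pgghg had the most negative ratios. It encodes the glucosidase that trims the glucose from the disaccharide on hydroxylysines of collagen, and lies on chromosome 7 from 140941391 to 140947664 (GENCODE M21, GRCm38). Pgghg had 26.4, 20.5 and 20.3 CPM in WT line 1 and 5.53, 4.39 and 4.24 CPM in RTF2-deficient line 1. In line 2 there were 35.9, 22.2 and 24.03 CPM in WT line 2 and 3.68, 3.15 and 6.80 CPM in RTF2-deficient line 2. WT line 2 replicate 1 stood highest, and the ratios on the log2 scale were -2.25 in line 1 and -2.59 in line 2, with a fitted log2 fold change over both lines of -2.39 (standard error 0.190). Gmppa, a regulatory relative of the enzyme that makes GDP-mannose, had 46.5, 37.7 and 37.8 CPM in WT line 1 and 18.7, 13.6 and 13.2 CPM in RTF2-deficient line 1. Its line 2 values were 50.3, 40.2 and 39.3 CPM in WT line 2 and 10.3, 11.4 and 20.3 CPM in RTF2-deficient line 2. The log2 ratios of Gmppa were -1.42 in line 1 and -1.63 in line 2, and replicate 3 of RTF2-deficient line 2 was the highest of its group. The other 5 were B3gat3, which completes the linker by which glycosaminoglycans are attached to proteins, Idua, the lysosomal iduronidase, Amdhd2, which deacetylates N-acetylglucosamine phosphate, Isyna1, which makes inositol phosphate from glucose phosphate, and Fuom, a fucose mutarotase. Log2 ratios of these 5 lay between -1.61 and -1.02. Of the 24 listed genes of collagen lysine modification, 23 were tested. Pgghg, whose difference the choice of members fixed, is left out of the count: besides it edgeR called 0 lower and 0 higher, where 1.22% and 0.505% of all genes tested were. With Pgghg included, DESeq2 called 1 lower and 0 higher, 8 of the 23 had an unadjusted p under 0.05 (4070 of 14263 over all genes), and the median of the fitted differences was -0.01. At an adjusted p alone, again with Pgghg, 4 were lower (17.4%) and 0 higher, beside 8.18% and 4.98% of all genes. Since the choice of members fixed Pgghg, the share that was lower cannot be read against that of all genes. Besides Pgghg the lower ones were P3h3 (-0.44), P4hb (-0.24) and Colgalt1 (-0.17).

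Of the other small-molecule enzymes, Serhl and Dio3 had the largest differences. Serhl encodes a serine hydrolase-like protein and lies on chromosome 15 from 83089506 to 83116674. It had 12.9, 11.3 and 9.54 CPM in WT line 1 and 2.93, 2.39 and 1.79 CPM in RTF2-deficient line 1. For line 2 the values of Serhl were 14.3, 13.2 and 10.1 CPM in WT line 2 and 2.20, 1.73 and 3.21 CPM in RTF2-deficient line 2. The genotypes lay far apart in both lines, with log2 ratios of -2.25 in line 1 and -2.40 in line 2. Dio3 encodes the deiodinase that inactivates thyroid hormone and is a gene of the imprinted region on chromosome 12. Dio3 had 4.94, 4.11 and 2.18 CPM in WT line 1 and 1.72, 0.803 and 0.786 CPM in RTF2-deficient line 1. In line 2 it varied more, with 4.14, 11.3 and 5.64 CPM in WT line 2 and 0.836, 0.965 and 1.24 CPM in RTF2-deficient line 2. WT line 2 replicate 2 was the highest and WT line 1 replicate 3 the lowest WT library, and the log2 ratios were -1.76 in line 1 and -2.79 in line 2. Dio3 has no intron, alone among the 68 members with GENCODE features. H2-Ke6, a hydroxysteroid dehydrogenase gene of the MHC region, had ratios of -1.61 and -2.21, and Csad, which makes hypotaurine from cysteine sulfinate, had -1.46 and -1.91. The remaining 6, Abhd14b, Aldh16a1, Cryzl2, Dhrs11, Haghl and Phyhd1, lay between -1.87 and -1.09.

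The mitochondrial members were Fastk, Trmu, Metap1d, Abcb8, Ppox, Sfxn5 and Antkmt. Fastk encodes a founding member of a family of RNA-binding proteins of mitochondria. It had 52.5, 46.7 and 50.2 CPM in WT line 1 and 24.2, 18.7 and 20.8 CPM in RTF2-deficient line 1. Line 2 gave 47.9, 46.5 and 48.9 CPM in WT line 2 and 15.1, 15.6 and 24.3 CPM in RTF2-deficient line 2. WT libraries of Fastk lay close together, and its log2 ratios were -1.23 in line 1 and -1.38 in line 2. Trmu, which thiolates mitochondrial tRNAs, Metap1d, a mitochondrial methionine aminopeptidase, Ppox, the enzyme before the last step of heme synthesis, and Antkmt, which methylates the ADP/ATP carrier, lay between -1.60 and -1.11. Sfxn5, a sideroflexin, had -1.23 and -1.43, and Abcb8, an ABC transporter of the inner membrane, had -1.31 and -1.41.

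Among transporters and proteins of membrane traffic, Slc1a5 had the most negative ratios. It encodes the sodium-dependent exchanger that carries glutamine and other neutral amino acids. Slc1a5 had 54.4, 45.3 and 49.02 CPM in WT line 1 and 16.3, 12.1 and 12.5 CPM in RTF2-deficient line 1. In line 2 its values were 57.98, 46.9 and 61.8 CPM in WT line 2 and 11.3, 11.1 and 18.1 CPM in RTF2-deficient line 2. Its log2 ratios were -1.86 in line 1 and -2.04 in line 2, and its fitted log2 fold change was -1.92 (standard error 0.128). Slc39a13 encodes ZIP13, a zinc transporter of intracellular membranes. It had 80.03, 75.4 and 78.9 CPM in WT line 1 and 37.4, 33.6 and 38.6 CPM in RTF2-deficient line 1. The line 2 libraries held 63.7, 67.1 and 63.2 CPM in WT line 2 and 29.8, 32.2 and 34.5 CPM in RTF2-deficient line 2. Both genotypes had lower values of Slc39a13 in line 2, and its ratios of -1.10 in line 1 and -1.01 in line 2 lay next to the threshold. Rab4b, a small GTPase of endosomal recycling, had 22.3, 22.9 and 18.8 CPM in WT line 1 and 11.96, 10.8 and 9.05 CPM in RTF2-deficient line 1. It had 22.02, 25.7 and 18.6 CPM in WT line 2 and 9.34, 7.09 and 12.2 CPM in RTF2-deficient line 2. The log2 ratios of Rab4b were -1.01 in line 1 and -1.21 in line 2. Ap1g2 encodes a gamma subunit of an adaptor complex of clathrin coats. Ap1g2 had 7.69, 7.44 and 7.45 CPM in WT line 1 and 4.09, 3.31 and 3.76 CPM in RTF2-deficient line 1. Its line 2 libraries had 13.3, 9.06 and 11.8 CPM in WT line 2 and 4.25, 5.51 and 5.98 CPM in RTF2-deficient line 2. Line 2 was the higher line in both genotypes, and the log2 ratios were -1.02 in line 1 and -1.12 in line 2. Stx4a, the syntaxin of the plasma membrane, Abca2, a lipid transporter of lysosomes, and Ano8, an anoctamin, had ratios between -1.70 and -1.09.

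The kinases and kinase-like members were Cdk5, Cdk10, Nek8, Map4k2, Tyk2 and Nrbp2. Nek8, a kinase of the cilium, had the most negative ratios of these, -1.75 and -1.86. Cdk5, the kinase activated by p35 in neurons, had -1.27 in both lines, and Tyk2, a Janus kinase that carries signals from interferon receptors, had -1.22 and -1.53. Map4k2, Nrbp2 and Cdk10 lay between -1.59 and -1.09. Cilium and centrosome genes among the members were Fuz, a planar cell polarity effector needed to build cilia, with -1.48 and -2.07, Spef1, a microtubule-bundling protein, with -1.12 and -1.02, Wdr90, a centriole protein, with -1.07 and -1.19, Lrrc45, of the linker between centrosomes, with -1.18 and -1.31, and Haus5, a subunit of augmin, with -1.04 in both lines. Septin3, a cytoskeletal GTPase, had -1.08 and -1.51.

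Of the members that act on DNA, RNA or transcription, Parp3 is shown by library. It encodes an ADP-ribosyltransferase that responds to DNA breaks. Parp3 had 87.00, 79.8 and 65.9 CPM in WT line 1 and 32.9, 26.7 and 21.5 CPM in RTF2-deficient line 1. In line 2 it had 173, 99.8 and 99.3 CPM in WT line 2 and 22.8, 16.4 and 44.1 CPM in RTF2-deficient line 2. WT line 2 replicate 1 and RTF2-deficient line 2 replicate 3 stood out above their groups, the same libraries that had the highest interferon scores of those groups, and the part of that in the value of Parp3 was not tested. Its log2 ratios were -1.52 in line 1 and -2.16 in line 2. Mpg, the glycosylase that removes alkylated purines, Dxo, which removes faulty caps of RNA, Gcfc2, a protein of the spliceosome, and Hdac10, a polyamine deacetylase, lay between -1.71 and -1.04. The corepressor gene Tle2 had -1.15 and -1.89, and Tcfl5, a helix-loop-helix factor, had -1.35 and -1.31. The listed RNase H and ribonucleotide excision genes, 15 in number, hold no member. Of these 1 (6.67%), Rnaseh2c, was called lower and 0 higher by edgeR, beside 1.22% and 0.505% of all genes, and DESeq2 called 1 lower and 0 higher. At an adjusted p alone 4 (26.7%) were lower, beside 8.18% of all genes, and 6 had an unadjusted p under 0.05 (4070 of 14263 over all genes), with a median difference of -0.10. The 4 were Rnaseh2c, Pold1 (-0.45), Pole (-0.40) and Lig1 (-0.21). Rnaseh1, Rnaseh2a and Rnaseh2b, the other RNase H genes listed, had -0.10, 0.03 and -0.11, with adjusted p-values of 0.285, 0.782 and 0.368 from edgeR.

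Among proteases and ubiquitin ligase adaptors, Lztr1, an adaptor of a cullin ligase that targets RAS proteins, had 93.8, 91.03 and 83.4 CPM in WT line 1 and 41.1, 39.9 and 36.1 CPM in RTF2-deficient line 1. Its line 2 values were 83.9, 84.4 and 86.1 CPM in WT line 2 and 36.4, 28.3 and 42.6 CPM in RTF2-deficient line 2. RTF2-deficient line 2 replicate 2 was the lowest of all, and the ratios were -1.20 in line 1 and -1.25 in line 2. Apeh, an enzyme that releases acylated amino acids from peptides, had 47.5, 46.2 and 46.96 CPM in WT line 1 and 25.6, 23.2 and 21.2 CPM in RTF2-deficient line 1. For line 2 there were 57.1, 52.3 and 49.1 CPM in WT line 2 and 22.2, 18.98 and 29.2 CPM in RTF2-deficient line 2. Its ratio in line 1, -1.01, was the nearest of all to the threshold, beside -1.17 in line 2. Npepl1, an aminopeptidase-like gene, had 38.9, 49.1 and 50.2 CPM in WT line 1 and 17.7, 16.7 and 19.5 CPM in RTF2-deficient line 1. It had 48.2, 55.6 and 55.1 CPM in WT line 2 and 16.5, 16.2 and 19.6 CPM in RTF2-deficient line 2. The ratios of Npepl1 were -1.36 in line 1 and -1.60 in line 2. Zer1, an adaptor that recognizes N-terminal glycine, Fbxw9, an F-box protein, Rhbdl1, a rhomboid protease, and Pcmtd2, a relative of protein carboxyl methyltransferases, lay between -1.45 and -1.12.

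Ptprn encodes IA-2, a phosphatase-like protein of secretory granules. It had 38.7, 44.2 and 58.1 CPM in WT line 1 and 13.8, 15.1 and 17.9 CPM in RTF2-deficient line 1. In line 2 there were 63.5, 41.7 and 64.7 CPM in WT line 2 and 15.8, 17.1 and 22.2 CPM in RTF2-deficient line 2. WT libraries of Ptprn spread widely in both lines, and the log2 ratios were -1.59 in line 1 and -1.62 in line 2. Gfra4, a coreceptor of the RET kinase, Kazald1, a secreted protein related to IGF-binding proteins, and Izumo4, of a family of sperm proteins, lay between -1.58 and -1.15. Serf2, a small protein that alters the aggregation of amyloid, had the highest level per length of the members, at 102 CPM per kilobase of spliced transcript in WT. It had 352, 323 and 316 CPM in WT line 1 and 137, 136 and 129 CPM in RTF2-deficient line 1. The libraries of line 2 had 292, 324 and 258 CPM in WT line 2 and 127, 116 and 144 CPM in RTF2-deficient line 2. Its ratios were -1.30 in line 1 and -1.18 in line 2. 2810408A11Rik was among the 5 most negative members but rests on few reads. It had 2.51, 2.29 and 1.61 CPM in WT line 1 and 0.558, 0.354 and 0.238 CPM in RTF2-deficient line 1. In line 2 it had 1.12, 1.83 and 0.976 CPM in WT line 2 and 0.406, 0.102 and 0.399 CPM in RTF2-deficient line 2. The fitted log2 fold change of 2810408A11Rik was -2.26 (standard error 0.320), and RTF2-deficient line 2 replicate 2 held 4 counts of it. The remaining 6 without a role given here were Ccdc159, Ocel1, Ripor3, Spata24, 1190007I07Rik and Gm16576, with ratios between -2.28 and -1.09.

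**Figure D2:**
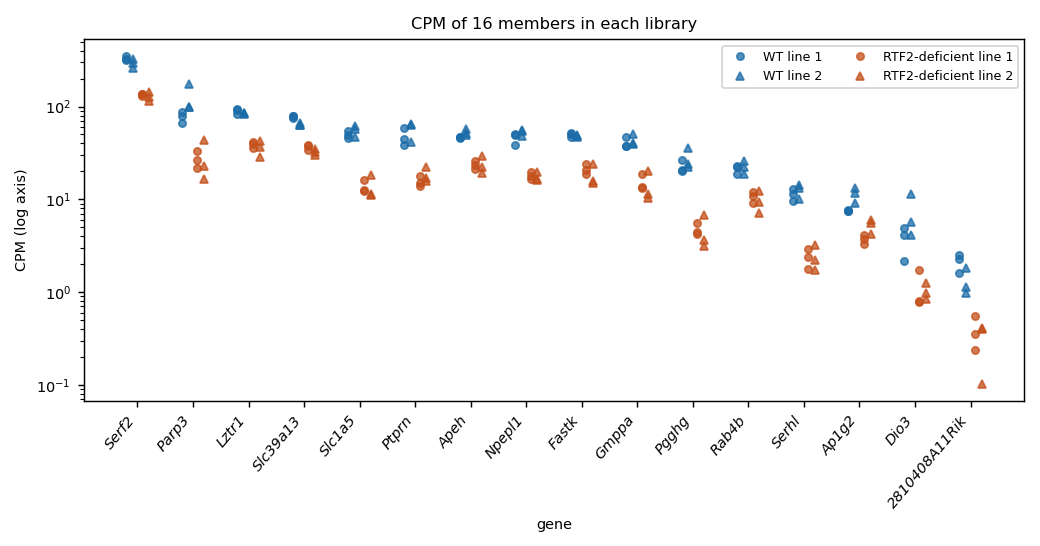
CPM on a log axis of 16 members, each point 1 library, circles for line 1 and triangles for line 2, blue for WT and orange for RTF2-deficient MEFs. Serf2 spans 116 to 352 CPM and 2810408A11Rik 0.102 to 2.51 CPM, and in each member all WT points lie above all RTF2-deficient points.

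The members whose weaker line lay nearest to the threshold of -1 were Apeh (-1.01), Slc39a13 (-1.01) and Rab4b (-1.01). Just outside, 53 genes met all conditions but the fold in 1 line. Nearest of these was Ltbp3, which encodes a protein that binds latent TGF-beta, with ratios of -0.998 in line 1 and -1.34 in line 2. It had 226, 167 and 155 CPM in WT line 1 and 118, 75.5 and 80.6 CPM in RTF2-deficient line 1. In line 2 it had 296, 177 and 194 CPM in WT line 2 and 66.8, 74.5 and 122 CPM in RTF2-deficient line 2. Etfbkmt, a mitochondrial lysine methyltransferase, followed with -1.39 in line 1 and -0.997 in line 2. It had 2.73, 1.88 and 2.54 CPM in WT line 1 and 0.767, 0.921 and 1.05 CPM in RTF2-deficient line 1. Line 2 held 2.90, 2.51 and 2.37 CPM in WT line 2 and 0.907, 1.63 and 1.36 CPM in RTF2-deficient line 2. Rnaseh2c, a subunit of RNase H2, had -0.99 in line 1 and -1.12 in line 2 and no overlap between genotypes. A further 74 genes passed both folds while libraries of the genotypes overlapped. Of these Zcwpw1 came closest, with its highest RTF2-deficient value at 3.25 CPM and its lowest WT value at 3.24. For Cyp27a1 these were 0.657 and 0.652 CPM, and for Pcgf1 they were 2.77 and 2.71 CPM.

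The contrast between the lines was no condition of the rule, but the rule used the same libraries. Its results for members are therefore given as a description. In edgeR's quasi-likelihood test over all 12 libraries, with terms for line and genotype, 2 of the 69 members differed between the lines at a Benjamini-Hochberg adjusted p under 0.05, where 16.2% of the 14263 genes tested did. Every member passed the filter on low counts. Ap1g2 was higher in line 2, with a log2 difference of 0.49, standard error 0.107 and an adjusted p of 0.0107 from edgeR, every library of line 2 lying above every library of line 1 of the same genotype. Slc39a13 was lower in line 2, at -0.29, standard error 0.0494 and an adjusted p of 0.0032 from edgeR, in all WT libraries and, with overlap, in RTF2-deficient libraries. At an unadjusted p under 0.05 there were 11 members, beside 30.2% of all genes, DESeq2 called 5 members and 3044 genes in all, and without RTF2-deficient line 2 replicate 3 edgeR called 4. The share among members cannot be read against that of all genes, because the condition that no libraries overlap limits how far a member can differ between lines. The median size of the difference was 0.13 for members and 0.14 for all genes, and the members ran from -0.61 to 0.60, with a median standard error of 0.140 for members and 0.102 for all genes. Between WT libraries alone 2 members were called, where 14% of genes were, and between RTF2-deficient libraries alone 0 were, where 1.94% were. At an unadjusted p under 0.05 these contrasts had 8 and 3 members, beside 28.1% and 13.4% of all genes. Between WT libraries line and sex cannot be told apart, since WT line 2 alone had next to no Xist. The line term over all 12 libraries includes WT line 2, so a part of sex in it cannot be separated either.

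Libraries of 1 group also differed in the level of the members as a whole, and this is a description, since the rule used every library and limits how far those of a group can spread. The level is the mean over members of log2 CPM (TMM-normalized) after each gene's mean over the 12 libraries was taken off. It was 0.69, 0.64 and 0.55 in WT line 1 and 0.78, 0.77 and 0.69 in WT line 2. In RTF2-deficient line 1 it was -0.51, -0.70 and -0.76, and in RTF2-deficient line 2 it was -0.83, -0.91 and -0.42. RTF2-deficient line 2 replicate 3 was the highest library of its group for 59 of the 69 members (85.5%), whereas it was the highest for 42.8% of all genes tested. RTF2-deficient line 1 replicate 1 was the highest of its group for 43 members (62.3%), beside 40.3% of all genes. In WT libraries the corresponding shares ran from 14.5% to 50.7% of members and from 24.4% to 40.6% of all genes, with 50.7% and 38.1% in WT line 1 replicate 1. Rtf2 had 6.57 CPM in RTF2-deficient line 2 replicate 3, beside 6.61 and 6.43 in the others of the group. In RTF2-deficient line 1 replicate 1 it had 5.48 CPM, beside 5.24 and 6.14, and its part in these levels was not tested. The interferon score was the highest of its group in both libraries, 6.49 and 1.81, and in WT line 1 replicate 1 (3.88) and WT line 2 replicate 1 (8.11), and its part in the level of the members was not tested. Without these 4 libraries, chosen after seeing the data, the rule kept 67 of the 69 members and found 90 genes in all.

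Beyond their measured values, most members were alike in the build of their genes, a build that some genes outside the set also had. Introns of vertebrate genes are mostly long, and a minority are short and rich in G and C, in genes that lie close together. In GENCODE M21, which held 68 of the members, the median intron of a member had a median length of 258 bases, while that of the other genes tested was 1570. This length lay below the median of the other genes for 62 of 67 members with an intron, and under 500 bases for 46 of 68 (67.6%), beside 17.7% of the other genes. Members had more introns than other genes (median 10 against 8) but less total intron (5979 against 19300 bases) and a shorter span (8515 against 24776 bases). Their transcripts had a median GC content of 56.6%, beside 50.4%, and lay above that median for 63 of 68. An annotated transcript with a retained intron existed for 56 of 68 members (82.4%) and for 56.8% of the other genes, while members also had more annotated transcripts (median 8 against 5). These features come from the annotation and were not tested, and counts per gene do not separate reads from introns and exons. The 5 members above the median of the other genes were Sfxn5 (9751 bases), Pcmtd2 (2570), Gcfc2 (1743), Tcfl5 (1653) and Slc1a5 (1610), and Dio3 had no intron.

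The same features ran along with the difference between genotypes in genes outside the set. Among the other genes with an intron, the 798 with a median intron under 200 bases showed a median difference of -0.11 (log2) in line 1 and -0.20 in line 2, and the 1597 from 200 to 500 bases had -0.06 and -0.10. From 1000 to 2000 bases, 3661 genes had 0.03 in both lines, and from 5000 bases up 1724 genes had 0.03 and 0.04. At an adjusted p under 0.05 in edgeR's test, 25.8% of the genes with the shortest introns were lower and 2.38% higher, whereas over all genes tested 8.18% were lower and 4.98% higher. Genes with a transcript GC content of at least 60%, 700 in number, had medians of -0.09 and -0.14, beside 0.04 and 0.06 in the 3052 genes under 45%. Intron length and GC content move together across genes, and their parts were not told apart. Within the set, where the rule limits the range of the ratios so that nothing is read from a weak correlation, Spearman's rho of the mean log2 ratio was -0.138 with median intron length over 67 members and 0.0807 with GC content over 68, as descriptions across genes that share their libraries. With each library's trend over median intron length taken off, an alternative chosen after seeing the data, 43 genes met the rule, all of them members. The median log2 ratio of the members was then -1.12 in line 1 and -1.23 in line 2, beside -1.23 and -1.43 before. Dio3 and Gm16576 have no median intron length, so this alternative says nothing about them.

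**Figure D3:**
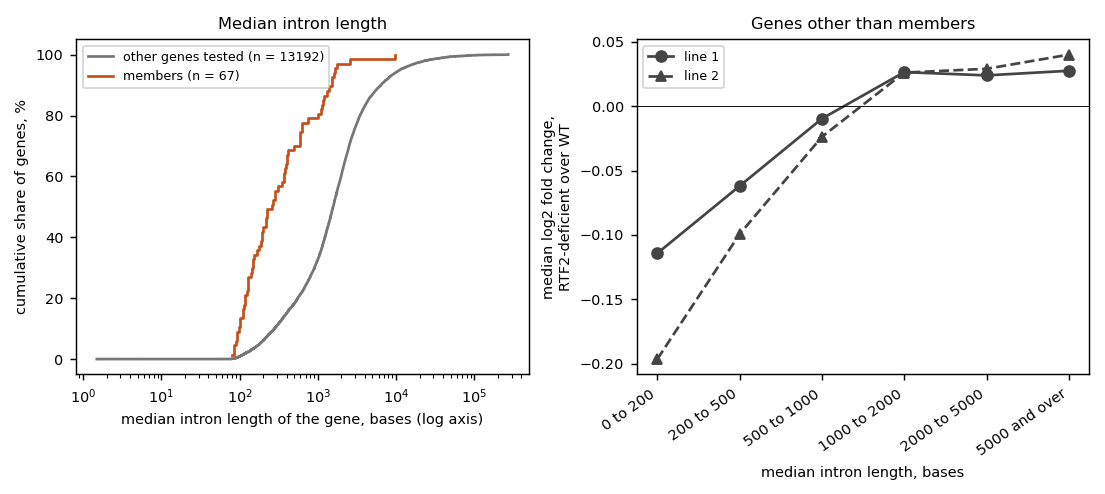
Left, cumulative share of genes by median intron length on a log axis, for 67 members (orange) and 13192 other genes tested (grey). Right, median log2 fold change of genes other than members in bins of median intron length, with circles for line 1 and triangles for line 2, which rises from -0.11 and -0.20 in the shortest bin to 0.03 and 0.04 in the longest.

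Some of these short introns can be read from the annotation, where an exon of another transcript runs across them. Over all such introns between coding parts, 162 in 50 members had a median length of 151 bases and a median GC content of 57.4%, while 7164 in 3756 other genes had 255 bases and 51.2%. The 5 shown are from the members with the most negative mean log2 ratio among those with such an intron of at most 150 bases. They are printed as examples of such introns, picked for their length, and not as typical of their genes: the median intron is 1127 bases in Serhl and 1610 in Slc1a5, while it is 178 in 2810408A11Rik, 128 in H2-Ke6 and 225 in Nek8. They come from GENCODE M21 transcripts on GRCm38, 5′ to 3′ on the gene's strand, with the GT and AG at the splice sites in capitals.
Serhl, intron 2 of 11, chr15:83101794-83101871, + strand: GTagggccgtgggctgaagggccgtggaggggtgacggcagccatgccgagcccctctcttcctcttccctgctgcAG
2810408A11Rik, intron 6 of 8, chr11:69898151-69898251, - strand: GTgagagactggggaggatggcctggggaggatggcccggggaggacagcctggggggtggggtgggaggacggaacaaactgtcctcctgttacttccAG
Slc1a5, intron 7 of 8, chr7:16795953-16796023, + strand: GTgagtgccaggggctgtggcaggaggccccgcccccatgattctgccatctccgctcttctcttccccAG
H2-Ke6, intron 2 of 8, chr17:34027523-34027622, - strand: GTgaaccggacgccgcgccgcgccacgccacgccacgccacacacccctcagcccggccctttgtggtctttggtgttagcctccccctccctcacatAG
Nek8, intron 6 of 14, chr11:78170795-78170872, - strand: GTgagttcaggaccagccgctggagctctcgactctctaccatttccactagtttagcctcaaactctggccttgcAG
Their GC content was 69.2% in Serhl, 65.3% in 2810408A11Rik, 66.2% in Slc1a5, 69% in H2-Ke6 and 53.8% in Nek8. The counts do not show whether these introns were spliced.

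Promoters were compared too, as a description without a test. Windows from 250 bases before to 50 after the start, from RefSeq (GRCm38.p6), were matched for 55 members and 10807 other genes tested, and were searched on both strands for 7 motifs, each counted whether or not it overlapped another. Median GC content was 60% for members and 61.3% for others. GGGCGG, the core of a GC box, was found in 67.3% of members' windows and 65.3% of others, and CCAAT in 50.9% and 38.4%. The ETS-like CCGGAAG was in 23.6% and 17.7%, CACGTG in 9.09% and 10%, TGACTCA in 5.45% and 3.65% and TGACGTCA in 3.64% and 3.19%. TATAAA was in 1 member's window (1.82%) and in 7.22% of others.

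The members lay on 16 of the autosomes, with 12 on chromosome 2, 8 on chromosome 7 and 7 each on chromosomes 15 and 17, and none on chromosomes 3, 4 and 13. The share of genes tested that were members was 1.25% on chromosome 15, 1.04% on chromosome 2 and 1.01% on chromosome 17. Rtf2 itself lies on chromosome 2, from 172440556 to 172469908, and any part of nearness to it was not tested. Over all chromosomes, 69 of the 14263 genes tested were members. Many had a close neighbour: the nearest gene of the count table was 197 bases away at the median, beside 2596 bases for other genes, and 26 of 68 members (38.2%) overlapped another gene, beside 23.3% of other genes. Whether the counting used strand is not given in the sources used here, so reads of such a member and its partner on the other strand cannot be told apart. Of the 68 members, 11 lay within 100000 bases of another member, in 4 groups, a count for which no share among other genes was computed. Haghl, Antkmt, Rhbdl1 and Wdr90 lay on chromosome 17 from 25779843 to 25861501, Abcb8, Cdk5 and Fastk on chromosome 5 from 24393663 to 24445287, Abhd14b and Parp3 on chromosome 9 and Ocel1 and Ano8 on chromosome 8.

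**Figure D4:**
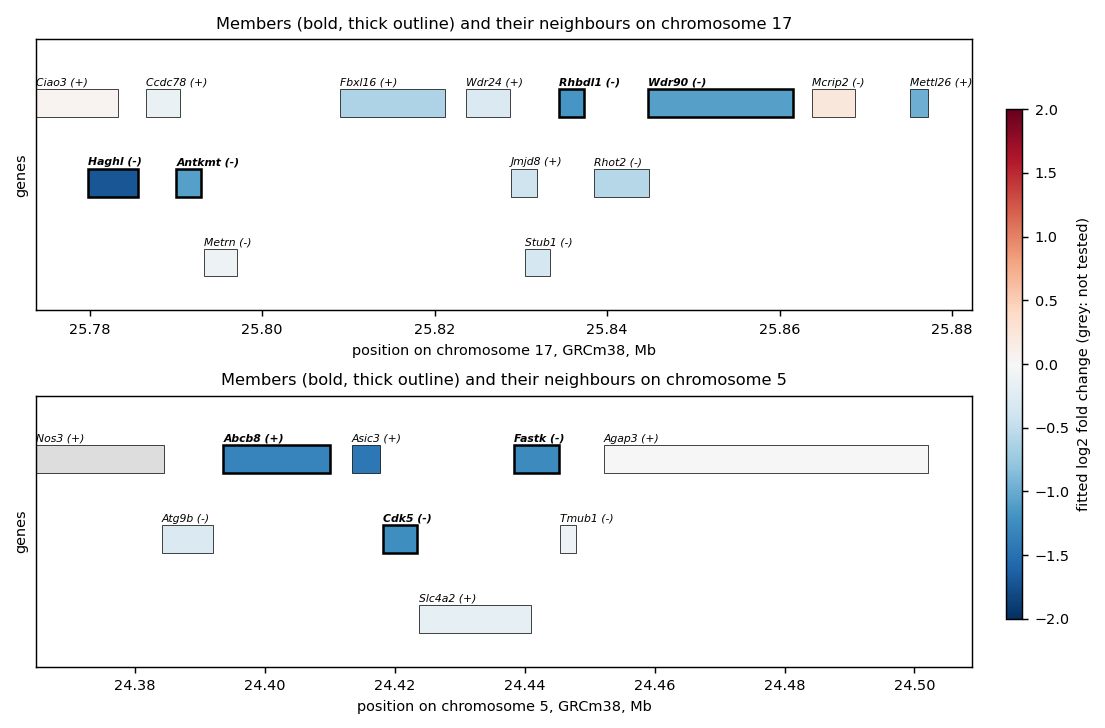
Genes on 2 stretches of chromosomes 17 and 5 (position in Mb, GRCm38), boxes to scale with the strand after each name, members in bold with a thick outline, coloured by the fitted log2 fold change of RTF2-deficient over WT MEFs. Members from -1.71 (Haghl) to -1.10 (Wdr90) share these stretches with genes near 0, such as Ciao3 at 0.06 and Agap3 at 0.01, and with lower ones, such as Asic3 at -1.45, Mettl26 at -0.97 and Fbxl16 at -0.62.

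Genes between the members of these groups did not meet the rule, so that smaller differences in them are in large part fixed by the choice of members. Asic3, between Abcb8 and Cdk5, had -1.45. On chromosome 17, Metrn, next to Antkmt, had a fitted difference of -0.11 (standard error 0.116), Jmjd8 had -0.41 (standard error 0.0923), and Rhot2, which overlaps the end of Wdr90, had -0.56 (standard error 0.0638). On chromosome 5, Slc4a2, between Cdk5 and Fastk and overlapping Fastk, had -0.18 (standard error 0.0682), while Fastk had -1.28 (standard error 0.104). The median intron had 115.5 bases in Slc4a2 and 223 in Metrn. Over all members, 127 neighbours outside the set were tested, either overlapping a member or next to it. Their median log2 fold change was -0.10, beside 0.00 for all genes. Called as above, 5 of the 127 were lower, where 1.22% of all genes were, and 0 were higher, where 0.505% were, with 50 neighbours at an unadjusted p under 0.05, as were 4070 of all 14263 genes. DESeq2 called 6 neighbours lower and 1 higher, beside 199 and 114 of the 14263 genes. At an adjusted p alone 28 were lower (22%) and 3 higher (2.36%), beside 8.18% and 4.98% of all genes. Among genes outside the set, 25.8% of those with a median intron under 200 bases and 16.1% of those from 200 to 500 were lower. The neighbours were not compared with genes of like intron length.

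For the 16 members shown by library, the nearest tested neighbours were close to 0 in several cases. Serf2 overlaps 2 tested genes: Hypk, on the same strand, had a fitted log2 difference of -0.46 (standard error 0.0762) and an adjusted p of 0.00202 from edgeR, and Serinc4, on the other strand, had 0.32 (standard error 0.181). Psmc3, a proteasome subunit gene that overlaps Slc39a13 on the other strand, had 0.07 (standard error 0.0716). Rrp9, which overlaps Parp3 on the other strand, had 0.37 (standard error 0.124), and Rrp7a, which overlaps Serhl on the other strand, had 0.14 (standard error 0.104). Thtpa overlaps Ap1g2 and had -0.14 (standard error 0.0489). Neurl4, 84 bases from 2810408A11Rik, had -0.32 (standard error 0.0869) with an adjusted p of 0.0305 from edgeR. Among neighbours that do not overlap, Dnajb2 beside Ptprn, Egln2 beside Rab4b, Stx16 beside Npepl1, Thap7 beside Lztr1, Speg beside Gmppa and Ppp2r5c beside Dio3 lay between -0.08 and 0.02. Bsn beside Apeh had -0.56 (standard error 0.356). No tested neighbour of Pgghg was found.

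The 5 neighbours called lower were Msln, Asic3, Itgb7, Flt3l and Cenpm. Msln, which encodes mesothelin and lies beside Haghl, had 0.579, 0.700 and 1.35 CPM in WT line 1 and 0.302, 0.354 and 0.357 CPM in RTF2-deficient line 1. In line 2 it had 30.5, 24.6 and 16.03 CPM in WT line 2 and 2.58, 1.68 and 7.02 CPM in RTF2-deficient line 2. Its level was higher in line 2 in both genotypes. Asic3, between Abcb8 and Cdk5, had at most 0.390 CPM in any library. Flt3l, a cytokine gene beside Aldh16a1, differed by -1.15 (standard error 0.289) on the log2 scale. Itgb7, an integrin gene beside Csad, had log2 ratios of -0.13 in line 1 and -2.02 in line 2. Cenpm, a centromere protein gene beside Septin3, had 12.04, 10.96 and 12.6 CPM in WT line 1 and 10.1, 7.61 and 9.17 CPM in RTF2-deficient line 1. Line 2 gave 14.8, 14.03 and 14.4 CPM in WT line 2 and 3.92, 3.58 and 5.51 CPM in RTF2-deficient line 2. Its fitted effect of genotype was -0.38 in line 1 and -1.70 in line 2, a difference of -1.32, with standard error 0.206 and an adjusted p of 0.0132 from edgeR's interaction term, which 1.29% of genes passed. Since genotype and sex cannot be told apart in line 2, their parts in this difference cannot be either. The number of neighbours called lower was 2 without WT line 2 replicate 1, RTF2-deficient line 2 replicate 1 or RTF2-deficient line 2 replicate 2, and 3 without WT line 2 replicate 2 or replicate 3.

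Outside the set, the genes whose log2 CPM over the 12 libraries (TMM-normalized) most resembled the mean of the members were, by Pearson's r, Anks3 (0.990), Plxna3 (0.988), Zfp414 (0.987), Ergic3 (0.986) and Stk25 (0.986), given as a description. Anks3 had 20.4, 19.1 and 19.2 CPM in WT line 1 and 12.9, 10.3 and 10.5 CPM in RTF2-deficient line 1. In line 2 there were 22.9, 21.7 and 20.6 CPM in WT line 2 and 9.46, 9.15 and 13.00 CPM in RTF2-deficient line 2. It missed the set by its ratio of -0.80 in line 1. Stk25, which encodes a kinase of the Golgi, had -0.80 in line 1 and -0.98 in line 2, and Ergic3, of the early secretory pathway, had -0.71 in line 1 and -0.86 in line 2. In each of these 5 genes, RTF2-deficient line 2 replicate 3 was the highest of its group, as it was for most members. Median introns had 776 bases in Anks3, 137 in Plxna3, 287 in Zfp414, 213 in Ergic3 and 520 in Stk25. The median for genes tested outside the set was 1570 bases.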

How the data were processed

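The deposited values are the authors' raw read counts for each Entrez gene in each library, without normalization. Salmon and tximport appear in the published methods, HTSeq with mm10 in the notes given at submission, and which of them made the counts is unknown. CPM values use column totals. edgeR 4.0.16 (R 4.3.3, limma 3.58.1) was run with filterByExpr on the 4 groups, TMM, and a quasi-likelihood fit with terms for line and genotype, and fitted log2 fold changes and their standard errors come from it. Effects within a line, the interaction and contrasts between lines of 1 genotype came from a layout of the 4 groups. DESeq2 1.42.0 was an alternative. The fit was tested on simulated data. Symbols came from RefSeq for 24045 of the 24100 genes, and features from GENCODE M21 for 21166. Members and lists were chosen with earlier results of these data known. Members with values in every library were the 10 with the highest mean WT CPM, the 5 with the most negative mean log2 ratio, Pgghg and Serhl, the 3 nearest to the threshold and those called between lines. Of other genes, the rule named the 3 nearest to the threshold outside it in each way, the neighbours called and the nearest ones of members shown by library, and the 5 most alike. All further names, those of the remaining members and of genes inside the close groups included, were chosen after values were seen. Lists: collagen lysine modification, RNase H, interferon-stimulated, p53, E2F and S phase, intron detention and SR proteins, and markers of fibroblasts and 6 other cell classes. Alternatives were another scaling, filters, thresholds, DESeq2, a replicate block and each library left out.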

Additional observations from a re-analysis of the deposited data

Results flagged for a closer look

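Of the genes named outside the set, Cenpm, the neighbour of Septin3, had an effect of genotype that differed between the lines, by -1.32 on the log2 scale (line 2 minus line 1, adjusted p = 0.0132 in edgeR's test of the interaction). It was lower in line 2 in all 3 RTF2-deficient libraries, and what the difference comes from was not tested. Genotype and sex cannot be told apart in line 2, so their parts in this difference cannot be either. Groups of 3 libraries are too small to look for a single library far from its group.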

How the results depend on the processing

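The set of 69 had 63 genes with TMM-normalized CPM, 62 of them members, and 60 with DESeq2's size factors, 59 of them members. It had 76 with a minimum of 0.5 CPM, 52 with 5 CPM, 79 with edgeR's filter in place of the minimum, and 85 with no overlap required within each line only. It held 143 if libraries could overlap and 228 at 1.5-fold, where the looser condition itself adds genes. With a trend over GC content taken off it held 53 (50 members), over spliced length 60 (58 members) and over median intron length 43 (43 members), all chosen after seeing the data. The members' median log2 ratios were then -1.13 and -1.30, -1.17 and -1.34, and -1.12 and -1.23 in line 1 and line 2, beside -1.23 and -1.43. The cause was not tested. With each library left out it ranged from 62 to 85. Calls between lines numbered 2316, from 1538 (without WT line 1 replicate 2) to 2185 with a library left out, 276 in RTF2-deficient libraries only, and 819 with a fold beyond 1. Members among them numbered 2, from 2 to 4 (without RTF2-deficient line 2 replicate 3) with a library left out, 5 with DESeq2, 0 in RTF2-deficient libraries only and 0 with the fold. Calls between genotypes numbered 174 lower and 72 higher. They were 1167 and 711 at an adjusted p alone. With a library left out the lower ones ranged from 131 to 214 and the higher ones from 46 (without RTF2-deficient line 2 replicate 2) to 103, and the higher ones were 43 with 1 CPM in 6 libraries, where fewer genes are tested. DESeq2 gave 200 lower and 115 higher, beside 199 and 114 counted over the 14263 genes edgeR tested. Neighbours called lower numbered 5, 3 with 1 CPM in 6 libraries, 28 at an adjusted p alone, and from 2 to 5 with a library left out. With the replicate number as a replicate block, calls were 2070 between lines, 3 of them members, and 165 lower and 62 higher between genotypes, 5 of them neighbours. Over 9598 genes, deviations from group means correlated best between same numbers in 3 of 3 libraries for WT line 1 with RTF2-deficient line 1 (0.781 to 0.851), WT line 1 with WT line 2 (0.461 to 0.561) and WT line 2 with RTF2-deficient line 1 (0.430 to 0.486). RTF2-deficient line 2 departed, with 0 of 3 against each other group and -0.720 to 0.133 against WT line 2. Its replicate 3 correlated best with replicate 1 of WT line 1 (0.782), its replicate 1 with replicate 2 (0.717) and its replicate 2 with replicate 3 (0.589). The block used the numbers as labelled, which may not match in that group, so that its replicate 3 may correspond to replicate 1 elsewhere, a hint from the data only. The fitted log2 fold changes of the 16 members with values in every library moved by at most 0.30 over 271 values under alternatives, less than the spread between replicates, and their sign was fixed by the choice of members. Of these, 5 reached -1 or above. Depth limits members near 1 CPM most.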

Other observations

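The genes that met the conditions turned round, higher in RTF2-deficient MEFs, were Aldh1a2, which makes retinoic acid, Tbrg4, of the FASTK family like the member Fastk, the small nucleolar RNA gene Snora68, the homeobox gene Alx1 and Sntg1, a syntrophin. They are named after their values were seen. Tbrg4 had log2 ratios of 1.04 in line 1 and 1.07 in line 2 at a mean of 42.9 CPM in WT, opposite in direction to Fastk, and the other 4 had under 1 CPM in WT.

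Of the other gene lists, 24 p53 targets had 0 called lower and 0 higher with a median log2 fold change of -0.04, and 4 at an unadjusted p under 0.05 in edgeR's test. The 28 E2F and S phase genes had 0 called and a median of -0.09, with 24 below 0 and 12 at an unadjusted p under 0.05, and at an adjusted p alone 5 were lower (17.9%, beside 8.18% of all genes) and 0 higher (beside 4.98%). The 25 genes of intron detention and SR proteins, which shape splicing, had 0 called and a median of 0.02, with 5 at an unadjusted p under 0.05. DESeq2 called 0 in these 3 lists. None of the 3 holds a member. Over all 14263 genes the median was 0.00, 4070 had an unadjusted p under 0.05, and 1.22% were called lower and 0.505% higher. Of the marker lists, the epithelial one had 1 call, Cldn4, which was higher, also by DESeq2, with 2 of 6 at an unadjusted p under 0.05. Cldn4 rests on few reads, with a mean of 0.0231 CPM in WT and 0.334 CPM in RTF2-deficient libraries. The other marker lists had 0 calls by edgeR and DESeq2, and at an unadjusted p under 0.05 there were 3 of 12 fibroblast markers, 1 of 2 endothelial, 1 of 3 macrophage and blood, 1 of 4 neural, 1 of 2 skeletal muscle and 3 of 6 fat and cartilage markers.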
